A study of Mus musculus with 8 samples.

Results

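The transcripts described here encode 7 subunits of the GABA-A receptor: the alpha subunits Gabra2, Gabra3, Gabra4 and Gabra5, the beta subunits Gabrb1 and Gabrb2, and the delta subunit Gabrd. They were taken by gene symbol from a count table of 54532 genes, and all 7 were among the 16745 genes with enough counts to be tested. RNA came from the medial prefrontal cortex (mPFC) of adult male C57BL/6 mice, collected 1 h after a conditioned place preference (CPP) test in a study of memory for METH, the drug named in the study's title. The retrieval group had 4 libraries and the non-retrieval group had 4, and tissue of 2 to 3 animals was pooled for each, so the spread within a group is a spread between pools. No transgene, deletion or other agent is named in the labels. They do not describe what the non-retrieval mice underwent or whether METH was given to both groups. Apparatus exposure and memory retrieval therefore cannot be told apart.

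GABA-A receptors are pentameric chloride channels that open when the transmitter GABA binds, and they carry most fast inhibition in the cortex. Most contain alpha and beta subunits together with a gamma or a delta subunit, and GABA binds where a beta subunit meets an alpha subunit. The alpha subunit shapes where the receptor sits and which drugs act on it: alpha2 and alpha3 are found in synaptic receptors, whereas alpha4 and alpha5 are found largely outside synapses, alpha4 often with delta, where they respond to ambient GABA with a lasting (tonic) current.

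Library totals ran from 25013503 to 29547978 counts, which gave 8956 to 38742 counts per subunit over the 8 libraries. Markers of cortical excitatory neurons (13 genes) and interneurons (12 genes) were all detected. Of the interneuron markers 1 fell, Pvalb, which marks fast-spiking basket cells, with a log2 fold change of -0.41 (adjusted p = 0.0355 with edgeR). That call ended without non-retrieval replicate 2, 3 or 4 or without retrieval replicate 2 or 4 (edgeR adjusted p = 0.0763, 0.149, 0.0576, 0.0875 and 0.0793). It also ended with the mean of striatal or of oligodendrocyte markers as a covariate (-0.36 and -0.27, edgeR adjusted p = 0.0771 and 0.507). The Pvalb call held under the other alternatives. The interneuron markers summed to 1566 to 1767 CPM across non-retrieval libraries and to 1489 to 1666 CPM across retrieval libraries, so their sums overlapped. Summed levels of 12 markers of mature oligodendrocytes were 3444 to 4062 CPM (read counts normalised to the effective size of each library) in non-retrieval and 4176 to 6051 CPM in retrieval, and 7 of the 12 passed the test, all higher. The 8 pan-neuronal markers summed to 8030 to 8423 CPM across non-retrieval libraries and 7399 to 8041 CPM across retrieval libraries, with 7 of 8 log2 fold changes below 0 and none past the test (edgeR, 3 at an unadjusted p under 0.05). The 16 markers of striatal projection neurons summed to 1158 CPM in retrieval replicate 2 and to 838 to 985 CPM elsewhere. Of these 16, 11 had a log2 fold change above 0 and 5 below, with a median of 0.19. None passed in edgeR, and 6 were higher at an unadjusted p under 0.05, against 11.2% of tested genes. The 8 markers of hippocampal neurons summed to between 248.5 and 271 CPM across non-retrieval libraries and between 287 and 324 CPM across retrieval libraries, with no overlap. Of the 7 that were tested, 3 were higher at an unadjusted p under 0.05 and 1 passed, Zbtb20, a gene that astrocytes also express (log2 fold change 0.67, adjusted p = 0.00235 with edgeR), and their median was 0.23. No marker of these lists was at 0, and beyond the marker covariates given further on their part in the subunit values was not tested. In bulk tissue, fewer cells of a type and less RNA per cell cannot be told apart.

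Per kilobase of gene model, the merged annotated exons of a gene, Gabra3 was the most abundant of the 7 transcripts. Its level over the 8 libraries was 39.0 to 47.3 CPM per kilobase, with a mean of 44.3. Gabrb2 (mean 23.4), Gabra5 (23.1), Gabrd (20.0) and Gabra4 (16.1) followed, then Gabrb1 (10.2) and Gabra2 (5.26 CPM per kilobase). Gabra3 stood above Gabrb2 in all 8 libraries, Gabra4 above Gabrb1 in all 8, and Gabrb1 above Gabra2 in all 8, with ranges that did not overlap. The order in the middle was less firm: Gabrb2 exceeded Gabra5 in 5 of 8 libraries, Gabra5 exceeded Gabrd in 7 of 8 and Gabrd exceeded Gabra4 in 7 of 8, and in each of these pairs the ranges overlapped. Which transcript forms the tissue expressed was not tested, so the order depends on the model lengths. Before scaling by length, Gabrb1 had more CPM than Gabra4 in every library.

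Most of the genes lie in clusters of subunit genes. In the build GRCm38, Gabra2 (ENSMUSG00000000560, 70957597 to 71095849, minus strand), Gabra4 (ENSMUSG00000029211, 71569749 to 71658308, minus strand) and Gabrb1 (ENSMUSG00000029212, 71658113 to 72149037, plus strand) are on chromosome 5. Gabra5 (ENSMUSG00000055078, 57407672 to 57510059, minus strand) is on chromosome 7, Gabrb2 (ENSMUSG00000007653, 42419757 to 42629028, plus strand) on chromosome 11, Gabra3 (ENSMUSG00000031343, 72432681 to 72656848, minus strand) on chromosome X and Gabrd (ENSMUSG00000029054, 155384980 to 155398112, minus strand) on chromosome 4. Gabra4 and Gabrb1 are arranged head to head and their gene models overlap by 196 bases, of which 46 are exonic in both among 6083 and 13838 exonic bases (GENCODE M21). Whether the counting used strand is not given in the sources used here. Which gene reads from the shared exonic bases counted for, if either, is therefore not known.

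RefSeq promoter windows of the same build (GRCm38.p6) were found for 6 of the 7 genes, and Gabrd was the gene without one. Gabrb2 had 3 windows, and Gabra3 and Gabrb1 had 2 each. For Gabra3 and Gabrb2 the most upstream window is printed. The windows of Gabra3 and Gabra4 are shown because these transcripts followed each other most closely across libraries, and that of Gabrb2 because it was the one subunit window among the 6 genes with a match to the binding motif of EGR factors, zinc-finger proteins whose genes are induced by neuronal activity. Each sequence runs 5′ to 3′ on the strand of its gene and ends at the base before the RefSeq start, except that of Gabra4, which stops 56 bases before it, where an annotated exon of Gabrb1 lies. Capitals mark matches, on either strand, to the EGR motif GCGNGGGCG or to the TATA motif TATAAA.
Gabra3, chrX:72656920-72657169, minus strand: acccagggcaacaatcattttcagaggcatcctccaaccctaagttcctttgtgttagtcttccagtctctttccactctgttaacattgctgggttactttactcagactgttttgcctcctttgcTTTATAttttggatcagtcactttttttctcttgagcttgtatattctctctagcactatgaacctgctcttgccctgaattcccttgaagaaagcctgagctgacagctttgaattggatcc
Gabra4, chr5:71658364-71658558, minus strand: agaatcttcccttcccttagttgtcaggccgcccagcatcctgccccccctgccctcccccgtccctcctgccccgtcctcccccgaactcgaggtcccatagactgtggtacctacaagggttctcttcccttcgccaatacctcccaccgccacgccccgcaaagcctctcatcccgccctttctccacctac
Gabrb2, chr11:42420190-42420439, plus strand: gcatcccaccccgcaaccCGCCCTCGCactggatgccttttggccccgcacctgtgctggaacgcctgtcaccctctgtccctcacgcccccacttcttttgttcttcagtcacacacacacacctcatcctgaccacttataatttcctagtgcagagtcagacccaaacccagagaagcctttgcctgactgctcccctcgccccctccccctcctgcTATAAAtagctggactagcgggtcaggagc
The Gabra3 window held 42.4% G and C and 0 CpG dinucleotides, whereas the whole 250-base window of Gabra4 held 61.2% and 12, against a median of 52.4% G and C over all windows. The match in Gabrb2 to the EGR motif starts 232 bases before the start and lies on the opposite strand, and a TATAAA match starts at 30 bases. This window lies within the gene model of Gabrb2, and the other Gabrb2 windows held neither motif. Among 32851 RefSeq windows of 250 bases, 4.70% held the EGR motif, 12.4% held TATAAA, 6.75% held the AP-1 motif TGANTCA and 1.55% the CRE motif TGACGTCA, the last a site of CREB factors; neither of these last motifs was in any window of the 6 genes. The short form TGACG, which lies within the CRE, was in 17.8% of windows and in none of these. A match to letters is a description of the window and does not show that a factor binds there.

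Retrieval was set against non-retrieval to ask whether subunit transcripts differ between the groups as labelled. None of the 7 passed the test at an adjusted p under 0.05 (edgeR quasi-likelihood F test, Benjamini-Hochberg adjusted over the 16745 genes), whereas 4.57% of tested genes did (3.67% higher and 0.902% lower in retrieval). At an unadjusted p under 0.05 edgeR also gave 0 of 7, against 18.5% of tested genes (11.2% higher, 7.27% lower). DESeq2 called 0 of 7, against 1031 of 14854 genes, with 0 of 7 at an unadjusted p under 0.05. Limma-voom with quality weights called 1 of 7, Gabra4, against 1619 of 16745 genes, with 4 of 7 at an unadjusted p under 0.05. The share of all genes at an unadjusted p under 0.05 was not counted for DESeq2 or limma-voom, so their 0 of 7 and 4 of 7 have no background to be read against. With the replicate number as a block, edgeR called 1 of 7, Gabra4, against 1791 of 16745 genes. The groups overlapped for all 7, and they did not overlap for 11.1% of tested genes (6.59% higher, 4.53% lower). Log2 fold changes, retrieval over non-retrieval, were below 0 for 5 of 7 subunits, against 52.2% of tested genes, and their median was -0.12 against -0.01 over all tested genes. The 95% intervals of the 7 together spanned -0.35 to 0.35 on the log2 scale, which is 0.786-fold to 1.28-fold.

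**Figure D1:**
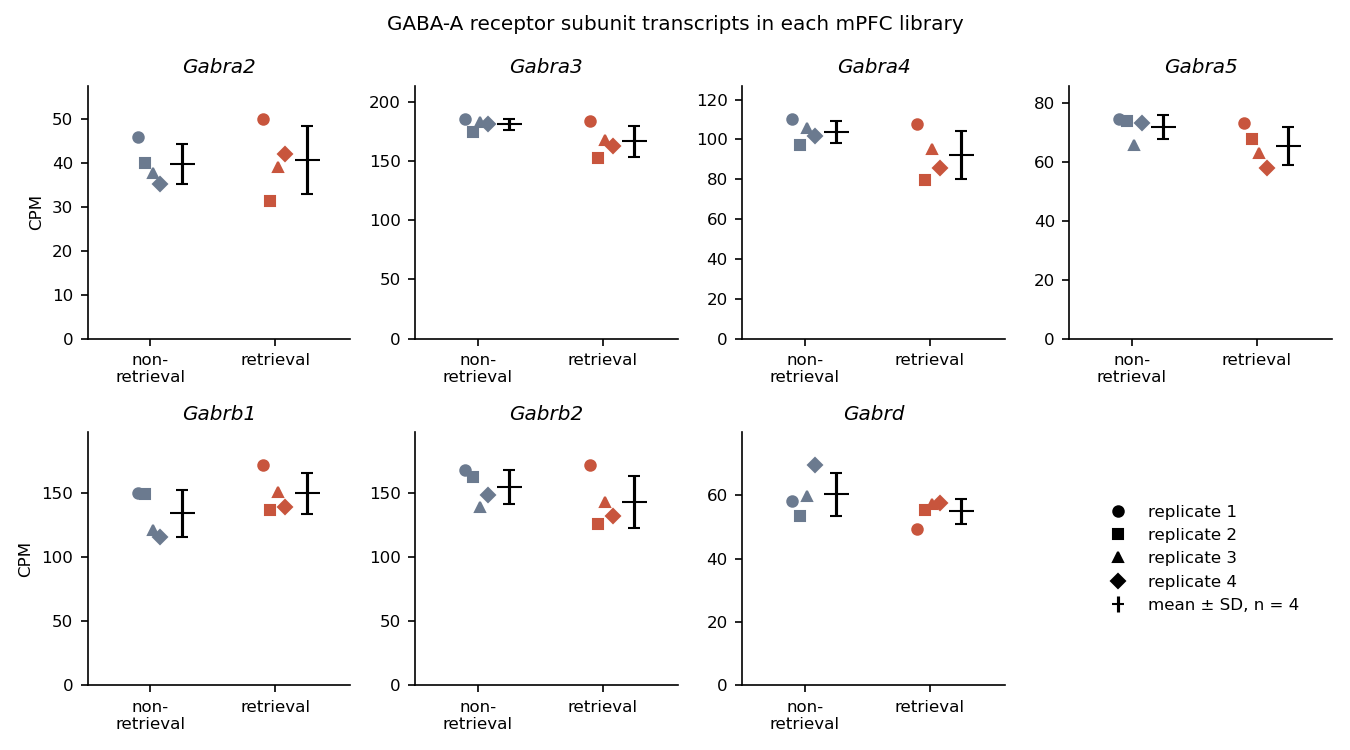
Level of each subunit transcript in CPM (vertical axis, from 0) in the 4 non-retrieval and 4 retrieval libraries; the marker shape gives the replicate number and the bar the mean ± SD. In each of the 7 panels the groups overlap, and retrieval replicate 1 is the highest retrieval library for 6 of 7 subunits and the lowest for Gabrd.

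Among the alpha subunits, Gabra4 came nearest to the threshold. Its level was 110.3, 97.1, 106 and 102 CPM in non-retrieval replicates 1 to 4 and 108, 79.8, 95.1 and 85.6 CPM in retrieval replicates 1 to 4. Retrieval replicates 2, 3 and 4 lay below all 4 non-retrieval libraries, and retrieval replicate 1 lay among them. The means were 104 ± 5.62 and 92.1 ± 12.2 CPM (SD, n = 4), and the log2 fold change was -0.17 (SE 0.08, 95% interval -0.35 to 0.00056, edgeR adjusted p = 0.272). Without retrieval replicate 1 the log2 fold change of Gabra4 was -0.25 (edgeR adjusted p = 0.0321), without retrieval replicate 2 it was -0.11 (edgeR adjusted p = 0.523), and over all alternatives its adjusted p ran from 0.0309 to 0.774.

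Gabra3, the most abundant of the 7, stood at 185, 174, 183 and 181 CPM in the non-retrieval libraries and at 184, 153, 167 and 163 CPM in the retrieval libraries, each in the order of the replicate number. It repeated the arrangement of Gabra4, with retrieval replicates 2, 3 and 4 below every non-retrieval library and replicate 1 among them. Its means were 181 ± 4.88 and 167 ± 13.1 CPM (SD, n = 4), and its log2 fold change was -0.12 (SE 0.06, 95% interval -0.25 to 0.02, edgeR adjusted p = 0.350). Without retrieval replicate 2 the value of Gabra3 was -0.08. The coefficient of variation of Gabra3 was 2.70% in non-retrieval and 7.85% in retrieval.

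Gabra5, whose subunit is enriched in the hippocampus and in deep layers of the cortex, measured 74.5, 74.0, 65.6 and 73.3 CPM in the non-retrieval libraries and 73.1, 67.7, 63.0 and 57.9 CPM in the retrieval libraries. Retrieval replicates 3 and 4 were below every non-retrieval library, and the other 2 were within the range of that group. The means of 71.9 ± 4.19 and 65.4 ± 6.53 CPM (SD, n = 4) gave a log2 fold change of -0.13 (SE 0.08, 95% interval -0.29 to 0.02, edgeR adjusted p = 0.361). Without retrieval replicate 4 it was -0.08.

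Gabra2, which encodes the alpha subunit concentrated on the axon initial segment of pyramidal cells, varied most among the retrieval libraries. It stood at 45.9, 40.0, 37.7 and 35.3 CPM in non-retrieval and at 50.02, 31.4, 39.1 and 42.0 CPM in retrieval. The highest and the lowest of the 8 values were both retrieval libraries, replicates 1 and 2. Its means were 39.7 ± 4.57 and 40.6 ± 7.70 CPM (SD, n = 4), with a log2 fold change of 0.03 (SE 0.11, 95% interval -0.21 to 0.28, edgeR adjusted p = 0.907), and the sign turned without retrieval replicate 1 (-0.07) or non-retrieval replicate 4 (-0.02).

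The beta subunits had fold changes of opposite sign. Gabrb1 measured 149.6, 149, 121 and 115 CPM in the non-retrieval libraries and 171, 137, 151 and 139 CPM in the retrieval libraries, so that retrieval replicates 1 and 3 were above every non-retrieval library and the other 2 were within that group's range. The means of 134 ± 18.1 and 149 ± 15.8 CPM (SD, n = 4) gave a log2 fold change of 0.16 (SE 0.09, 95% interval -0.03 to 0.35, edgeR adjusted p = 0.376), which was 0.09 without non-retrieval replicate 4 or without retrieval replicate 1. Gabrb2, which encodes a beta subunit of many cortical synaptic receptors, measured 168, 163, 139 and 149 CPM in the non-retrieval libraries and 171, 126, 143 and 132 CPM in the retrieval libraries. Retrieval replicates 2 and 4 were below every non-retrieval library and replicate 1 was above them all. Its means were 154 ± 13.2 and 143 ± 20.3 CPM (SD, n = 4), with a log2 fold change of -0.11 (SE 0.09, 95% interval -0.30 to 0.08, edgeR adjusted p = 0.544). For Gabrb2 it was -0.20 without retrieval replicate 1 (edgeR adjusted p = 0.0914), -0.05 without retrieval replicate 2, and -0.07 without retrieval replicate 4 or non-retrieval replicate 1.

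Gabrd encodes the delta subunit, which marks receptors outside synapses that are sensitive to neurosteroids. Its level was 58.1, 53.6, 59.9 and 69.5 CPM in the non-retrieval libraries and 49.4, 55.3, 57.2 and 57.7 CPM in the retrieval libraries. The 2 extremes were non-retrieval replicate 4 and retrieval replicate 1, and the other 6 libraries lay between 53.6 and 59.9 CPM. The means were 60.3 ± 6.67 and 54.9 ± 3.81 CPM (SD, n = 4), and the log2 fold change was -0.14 (SE 0.08, 95% interval -0.30 to 0.03, edgeR adjusted p = 0.391). Leaving out either extreme brought the Gabrd value nearer to 0, to -0.06 without non-retrieval replicate 4 and to -0.08 without retrieval replicate 1.

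**Figure D2:**
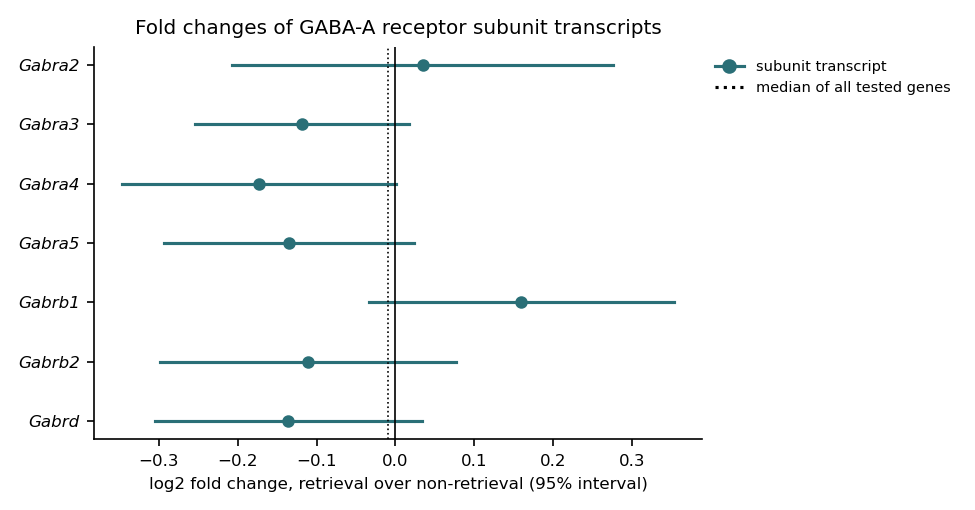
Log2 fold change of retrieval over non-retrieval (horizontal axis) with its 95% interval for the 7 subunits; the dotted line is the median of all tested genes. The intervals of all 7 include 0, and Gabra2 and Gabrb1 are the 2 of the 7 with a value above 0.

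The make-up of each subunit class was then compared as the share of each transcript in the counts per kilobase of its class, a ratio within a library that library scaling does not touch. Of the 12 shares tested, 1 had groups that did not overlap (8.33%), that of Gabrb1 in the beta class. It was 12.5, 13.5, 12.2 and 11.02% in the non-retrieval libraries and 14.6, 14.2, 14.3 and 13.8% in the retrieval libraries. Every retrieval library was above every non-retrieval library, with means of 12.3 ± 1.03% and 14.2 ± 0.309% (SD, n = 4), a difference of 1.92 percentage points. Its two-sided exact permutation p over 70 arrangements was 0.0286, the smallest that this design allows, and the adjusted p over the 12 shares was 0.343. A lone share at that smallest p cannot pass the correction, so the adjusted p does not decide whether this share differs. Gabrb1 has the longest model of the 7, 13838 bases, and 40.9% G and C. An alternative chosen once the data had been seen, in which each library was corrected for length and GC content, put the difference in its share at 1.35 percentage points (exact permutation test, adjusted p = 0.171). It was 3.10 percentage points from counts without length scaling (exact permutation test, adjusted p = 0.257). With Gabrb1 set against Gabrb2 alone it was 4.11 percentage points (exact permutation test, adjusted p = 0.0857 over 6 shares). There the shares of Gabrb1 and Gabrb2 mirror each other and enter the adjustment as 2 tests, which lowers that adjusted p.

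The shares of the other 6 subunits overlapped between groups. Gabrb2 made up 30.9 ± 0.762% of the beta class in non-retrieval and 29.5 ± 1.58% in retrieval (SD, n = 4; exact permutation test, adjusted p = 0.514). In the alpha class, Gabra3 made up 31.3 ± 0.978% and 32.2 ± 1.36%, Gabra5 16.4 ± 1.03% and 16.7 ± 1.72%, Gabra4 11.6 ± 0.342% and 11.4 ± 0.357%, and Gabra2 3.52 ± 0.272% and 4.001 ± 0.407% (non-retrieval and retrieval, SD, n = 4). Their adjusted p ran from 0.457 for Gabra2 to 0.8286 for Gabra5 in the exact permutation test. Gabrd held 39.7 ± 2.75% of the gamma and delta class in non-retrieval and 40.3 ± 4.06% in retrieval (SD, n = 4; exact permutation test, adjusted p = 0.8286). The share of Gabra4 varied least in relation to its size, between 11.1 and 11.96% over the 8 libraries, although its CPM ran from 79.8 to 110.3.

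**Figure D3:**
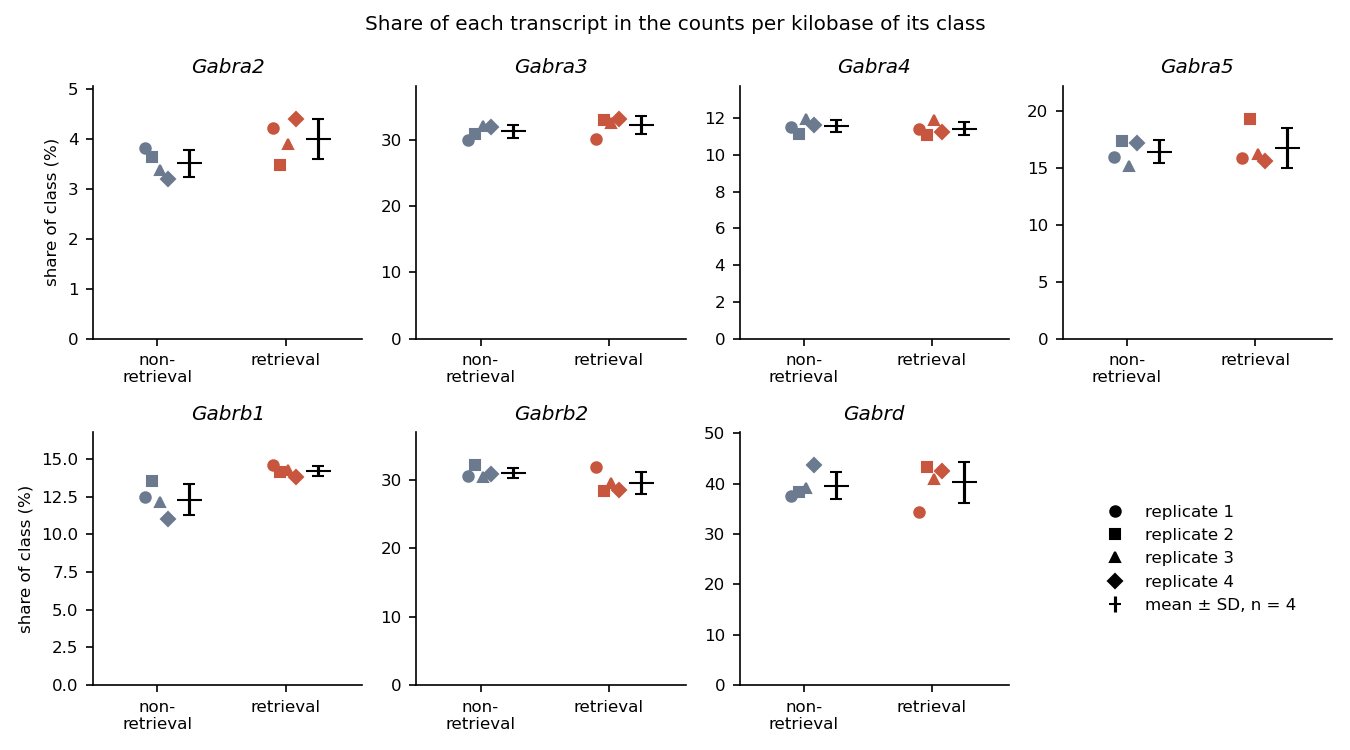
Share of each of the 7 transcripts (vertical axis, from 0, percent of the counts per kilobase of its alpha, beta, or gamma and delta class) in the 4 non-retrieval and 4 retrieval libraries; the marker shape gives the replicate number and the bar the mean ± SD. The Gabrb1 share is 11.02 to 13.5% in non-retrieval and 13.8 to 14.6% in retrieval.

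Across the 8 libraries, Gabra3 and Gabra4 kept the same order. Pearson's r of their log2 CPM was 0.99 and Spearman's rho was 1 (exact permutation p = 2.48e-05 and 4.96e-05, the smallest that 8 libraries can give for these values; adjusted over 21 pairs, 0.000521 and 0.00104). The relation held without the 2 libraries farthest from the median of Gabra3 (r = 0.95), for deviations from the group means (r = 0.98) and after the length and GC correction (r = 0.91). Both transcripts were highest in non-retrieval replicate 1 and lowest in retrieval replicate 2. Their models are close in GC content, 43.1% for Gabra3 and 42.2% for Gabra4.

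Gabrb1 and Gabrd ran in opposite directions, with r = -0.87 (exact permutation p = 0.00608, adjusted over 21 pairs 0.0638) and rho = -0.69 (exact permutation p = 0.0694, adjusted 0.208). Without the 2 libraries farthest from the median of Gabrb1, r was -0.73, and for deviations from the group means it was -0.83. Gabrd has 54.8% G and C against 40.9% in Gabrb1, and after the length and GC correction r was -0.79. Of the 21 pairs, 17 had a positive r, 1 passed at an adjusted p under 0.05, and Gabrd was in 4 pairs with a negative r. The head-to-head neighbours Gabra4 and Gabrb1 had r = 0.11 and rho = 0.26 (exact permutation p = 0.791 and 0.536, adjusted 0.923 and 0.735), with r = 0.04 when the 2 libraries farthest from the median were left out, 0.55 for deviations from the group means and -0.54 after the length and GC correction.

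**Figure D4:**
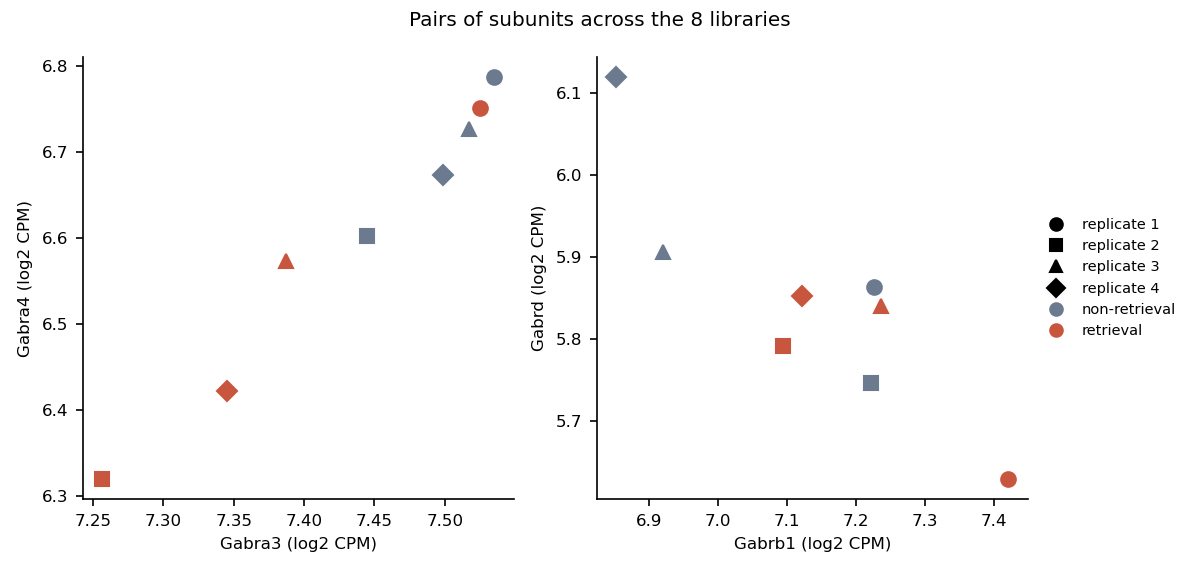
Log2 CPM of Gabra4 against Gabra3 (left) and of Gabrd against Gabrb1 (right) in the 8 libraries; colour gives the group and shape the replicate number. Gabra3 and Gabra4 rank the libraries alike, and in the right panel retrieval replicate 1 has the most Gabrb1 and the least Gabrd.

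The genes most like Gabra4 over the 8 libraries, among 9599 protein-coding genes with a mean of at least 10 CPM and apart from the other 6 subunits, included the zinc-finger gene Zfp2 (r = 0.99) and Reep1, a gene for a shaping protein of the endoplasmic reticulum (r = 0.99). These values are descriptions over the same 8 libraries, which differ in depth and base composition. The log2 fold changes were -0.17 for Zfp2 and -0.06 for Reep1 (edgeR adjusted p = 0.381 and 0.626).

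Base composition differed between libraries. Across 16727 tested genes, which are not independent replicates, the deviation of a library from the mean of all 8 had a Spearman correlation with GC content of -0.44 in non-retrieval replicate 1, and of -0.47 and 0.41 in replicates 1 and 2 of the retrieval group. The other 5 libraries lay between -0.00473 and 0.25. These 3 libraries held most of the extremes of the subunits: of the 7, 3 were highest in non-retrieval replicate 1, 3 were highest in retrieval replicate 1 and 4 were lowest in retrieval replicate 2. The fitted trend for a gene of the length and GC content of Gabra2 (38.4%) was 0.20 on the log2 scale in replicate 1 of the retrieval group and -0.13 in its replicate 2, and for Gabrd it was -0.09 and 0.07. Between groups the fitted trend differed by 0.08 for Gabrb1 and by at most 0.03 in size for the other 6.

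With that trend removed, Gabra4 had a log2 fold change of -0.18 (SE 0.05, edgeR adjusted p = 0.0445) and Gabrb1 one of 0.08 (SE 0.05, edgeR adjusted p = 0.359). The same correction gave 1375 calls over all genes, 743 higher and 632 lower, where the uncorrected data gave 615 higher and 151 lower. With the mean log2 CPM of the oligodendrocyte markers as a covariate, the log2 fold changes of Gabra4, Gabra3 and Gabrb2 were 0.09, 0.02 and 0.10, with the opposite sign, and that of Gabrb1 was 0.28 (edgeR adjusted p = 0.774, 0.945, 0.785 and 0.418). This mean ran from 6.72 to 6.92 in non-retrieval libraries and from 6.95 to 7.41 in retrieval libraries, with no overlap. The oligodendrocyte covariate therefore takes up part of the group difference in the fit and cannot be told apart from the group. With the mean of the striatal markers as a covariate, Gabra4 stood at -0.10 (edgeR adjusted p = 0.551), Gabrb1 at 0.21 (0.236) and Gabra2 at 0.17 (0.320).

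**Figure D5:**
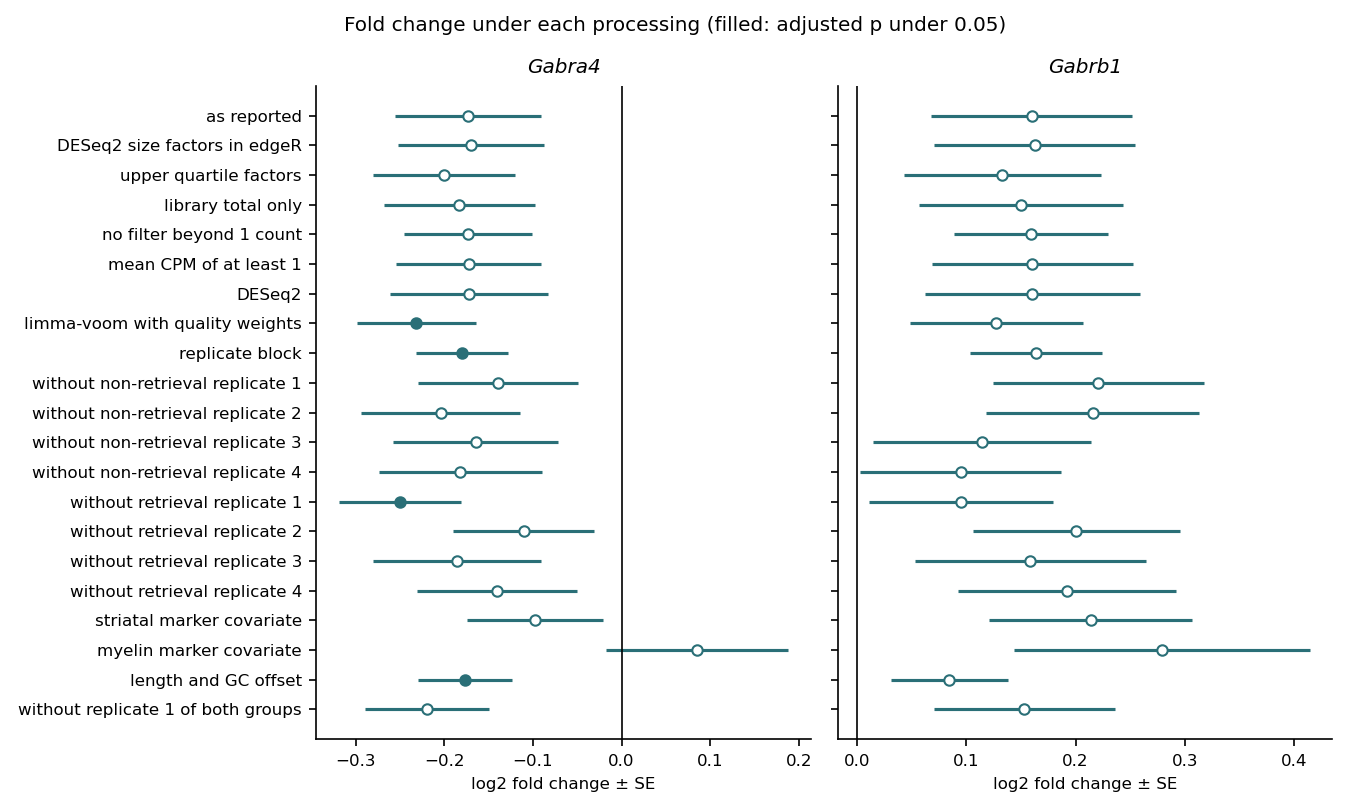
Log2 fold change ± SE (horizontal axis) of Gabra4 (left) and Gabrb1 (right) as reported and under each of 20 other ways of processing; filled points had an adjusted p under 0.05. Gabra4 runs from -0.25 to 0.09, with 4 filled points, and Gabrb1 from 0.08 to 0.28, with 0.

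Among other GABA-A receptor subunit genes, Gabrg1 and Gabrg3, which encode gamma subunits, had log2 fold changes of 0.06 and -0.04 (adjusted p = 0.773 and 0.836 with edgeR). Gabrq, which encodes the theta subunit and was near 1 CPM, stood at 0.23 (SE 0.30, edgeR adjusted p = 0.725). In the cluster on chromosome 5, the neighbours Gabrg1, Gabra2, Gabra4 and Gabrb1 stood at 0.06, 0.03, -0.17 and 0.16, and on chromosome 7 Gabrg3 and Gabra5 stood at -0.04 and -0.13.

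The proteins that anchor and move these receptors were listed in 25 genes, of which 24 were found and tested. None passed in edgeR, 4 were higher at an unadjusted p under 0.05, and the median log2 fold change was 0.01. Trak1, an adaptor that links cargo to kinesin motors, was 251 ± 8.54 and 294 ± 24.3 CPM (means ± SD of 4 libraries), for a log2 fold change of 0.23 (adjusted p = 0.0608 with edgeR), with every retrieval library above every non-retrieval library. It passed with DESeq2 (adjusted p = 0.0170), whereas with the length and GC correction it stood at 0.06 (edgeR adjusted p = 0.462). None of 8 genes for GABA synthesis, packing, uptake and breakdown passed, with 1 at an unadjusted p under 0.05. That gene, Gad1, the main GABA-synthesising enzyme, was 334 ± 10.2 and 302 ± 15.7 CPM (means ± SD of 4 libraries), for a log2 fold change of -0.15 (adjusted p = 0.193 with edgeR). Gad1 passed with the length and GC correction (-0.19, edgeR adjusted p = 0.0169) and with the replicate number as a block (-0.15, edgeR adjusted p = 0.0449). It passed under no other alternative, among them DESeq2 (adjusted p = 0.115) and the striatal and oligodendrocyte covariates (-0.10 and -0.09, edgeR adjusted p = 0.399 and 0.72). None of 5 genes of the GABA-B receptor and its auxiliary subunits passed, with 0 at an unadjusted p under 0.05, and none of 5 tested genes for endogenous modulators did, with 1, Dbi (0.19), at an unadjusted p under 0.05.

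Of 9 genes that set the chloride gradient on which the receptors act, 1 rose and 8 did not pass, with a median log2 fold change of 0.08. Wnk1, a kinase that controls cation-chloride cotransporters, rose, at 175 ± 13.4 CPM in non-retrieval libraries and 220.0 ± 9.77 CPM in retrieval libraries (SD, n = 4). Its log2 fold change was 0.33 (SE 0.07, adjusted p = 0.00781 with edgeR), and all 4 retrieval libraries were above all 4 non-retrieval libraries. Its call held without any 1 library and ended with the length and GC correction (0.15, edgeR adjusted p = 0.0534) and with the oligodendrocyte covariate (0.22, edgeR adjusted p = 0.376). Slc12a2, the chloride importer NKCC1, was 67.1 ± 7.63 and 81.5 ± 4.58 CPM (means ± SD of 4 libraries), for a log2 fold change of 0.28 (adjusted p = 0.0533 with edgeR), with groups that did not overlap. It passed with DESeq2 (adjusted p = 0.0197) and with the length and GC correction (0.27, edgeR adjusted p = 0.0198). Slc12a2 did not pass with the oligodendrocyte covariate (0.15, edgeR adjusted p = 0.635) or the striatal covariate (0.27, edgeR adjusted p = 0.0945).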

How the data were processed

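The deposited values are raw counts per gene and were not normalized. HISAT2 2.0.5 and featureCounts 1.5.0-p3 are the tools, and GRCm38 the build, listed in the submitters' processing notes; for the annotation release and strand setting, nothing is given in the sources used here. The deposited gene lengths equal the merged exons of GENCODE M21 for all 7 subunits. Columns were matched to samples by title, and totals were 25013503 to 29547978 counts. The sampling error of the subunit counts was not set against the spread between pools.

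Genes were filtered with filterByExpr, scaled with TMM and compared with the quasi-likelihood F test (two-sided) of edgeR 4.0.16 in R 4.3.3, with Benjamini-Hochberg adjustment over 16745 genes and a threshold of 0.05. Log2 CPM used a prior count of 2. For shares, an exact permutation test (two-sided) was used. The alternatives were other scaling factors and filters, DESeq2 1.42.0, limma-voom (limma 3.58.1), the replicate number as a block, marker covariates, a loess offset (span 0.5) for length and GC content (available for 99.9% of tested genes), and each library left out. The subunits and gene lists were chosen with earlier results of these data known. The text names all 7 subunits, of each other list up to 4 genes with the smallest p, and the 3 protein-coding genes most like the subunit with the smallest p. Some results that this rule selects are not reported here.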

Additional observations from a re-analysis of the deposited data

Results flagged for a closer look

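Of 48 groups of 4 libraries examined for a value far from the others (subunit levels, subunit shares and summed markers), 2 had one, about what chance gives at 1 in 20, and both concern Gabra5. In non-retrieval, replicate 3 had 65.6 CPM of Gabra5 against 73.3 to 74.5 CPM in the other 3 libraries. In retrieval, replicate 2 had a Gabra5 share of the alpha class of 19.3% against 15.6 to 16.2% in the others. Retrieval replicate 2 is also the library with the highest sum of striatal markers, whose part in this share was not tested.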

How the results depend on the processing

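The number of changed genes was 766, and 1619 with limma-voom, 1375 with the length and GC offset, 120 with the oligodendrocyte covariate and 330 to 1360 with 1 library left out. The number of the 7 subunits changed was 0, and 1, Gabra4, with limma-voom, with the length and GC offset and without retrieval replicate 1 (range 0 to 1 over the 8 libraries left out). Without replicate 1 of both groups, chosen after the data were seen, it was 0, with Gabra4 at -0.22 (edgeR adjusted p = 0.0731).

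With the replicate number as a block, 1791 genes and 1 subunit, Gabra4, passed (log2 fold change -0.18, edgeR adjusted p = 0.0309). No label pairs the replicate numbers, so they were not taken as pairs in the main test. The correlations of same-numbered deviations were 0.22, 0.08, 0.03 and 0.10, and 8 of 8 libraries correlated best with their own number. What same-numbered libraries share is not given in the labels. The count of 0 subunits in the main test does not allow for it.

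Signs turned for Gabra2, at -0.0746 (without retrieval replicate 1) to 0.14 over the libraries left out, with -0.02 without non-retrieval replicate 4, and with the oligodendrocyte covariate for Gabra3 (0.0222), Gabra4 (0.0853) and Gabrb2 (0.10). That covariate does not overlap between groups, so its fit also takes up part of the group difference. The difference in the share of Gabra5 was 0.32 percentage points, -0.18 among the 4 alpha subunits described alone and -0.53 to 0.69 with 1 library left out (-0.09 without non-retrieval replicate 3). That of Gabrd was 0.68 and ran from -0.32 to 2.65 (-0.04 without non-retrieval replicate 1, -0.07 without retrieval replicate 4). The cause was not tested in any of these cases. Gabra5, Gabrb1 and Gabrd kept the sign of their fold change under all 20 alternatives. No adjusted p of a share was under 0.05, a value that a lone share could not reach in this design.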
